A study of Bos taurus with 2 samples.

Results

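*HOX* genes were identified on the arrays as the probes whose accession maps to a bovine symbol of the HOXA, HOXB, HOXC or HOXD cluster followed by a number. The rule gave 33 probes for 21 genes, of 43652 probes for 26714 genes on the array (12603 genes with a symbol). The gene table lists 39 *HOX* genes in cattle, and the other 18 had no probe with an accession matched to them. Total RNA came from the longissimus thoracis (LT) muscle, a muscle of the back, of Japanese Black cattle fetuses at about 8.5 months of gestation, all conceived with male-sorted semen of 1 sire. The high-nutrition (HN) pool held RNA of 4 fetuses of dams fed 120% of the nutritional requirement through gestation, and the low-nutrition (LN) pool that of 4 fetuses of dams fed 60%. The fetuses with the highest body weight in the HN group and with the lowest in the LN group had been pooled, so diet and selection by weight cannot be told apart. Each pool went onto a single one-color Agilent array of the same slide. There is therefore no replicate, no test between HN and LN and no p-value, and how far fetuses of a group differ is unknown. The place along the muscle from which the piece was cut is not given in the sources used here.

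*HOX* genes encode transcription factors that bind DNA through a homeodomain, and they lie in 4 clusters, HOXA to HOXD. Genes at the same place in each cluster carry the same number, from 1 to 13, and are called paralogs. Those with low numbers are expressed from the hindbrain and neck backward, and those with high numbers only toward the tail and the ends of the limbs, so that the set of *HOX* genes in a tissue reflects its level along the body. Muscle stem cells and the fibroblasts of connective tissue keep such a positional pattern after the muscle has formed.

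The *HOX* genes found in the muscle were mostly those of low and middle paralog numbers. A probe is called well above background when the scanner software marks its signal as such. Of the 21 genes, 14 had a probe well above background on both arrays, 2 on the HN array only and 5 on neither. The share of 14 of 21 compares with 82.2% of all genes with a symbol. All 9 genes of paralog groups 1 to 4 and all 5 genes of groups 5 to 9 were well above background on at least 1 array. On both arrays, 8 of the 9 and 4 of the 5 were well above background, near the 82.2% of all genes with a symbol. Of the 7 genes of groups 10 to 13, *HOXA10* and *HOXC13* were, on both arrays, and *HOXC11*, *HOXC12*, *HOXD10*, *HOXD11* and *HOXD12* were not on either array. Genes of the middle of the clusters were sparsely covered, since 10 of the 15 genes of groups 5 to 9 had no matched probe (*HOXA6*, *HOXA7*, *HOXB5*, *HOXB6*, *HOXB8*, *HOXC6*, *HOXC8*, *HOXC9*, *HOXD8* and *HOXD9*). Others without one were *HOXD1* and *HOXD3* among the low numbers and *HOXA11*, *HOXA13*, *HOXB13*, *HOXC10* and *HOXD13* among the high ones. By probe, 20 of the 33 were well above background on both arrays, against 70.2% of all probes.

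**Figure D1:**
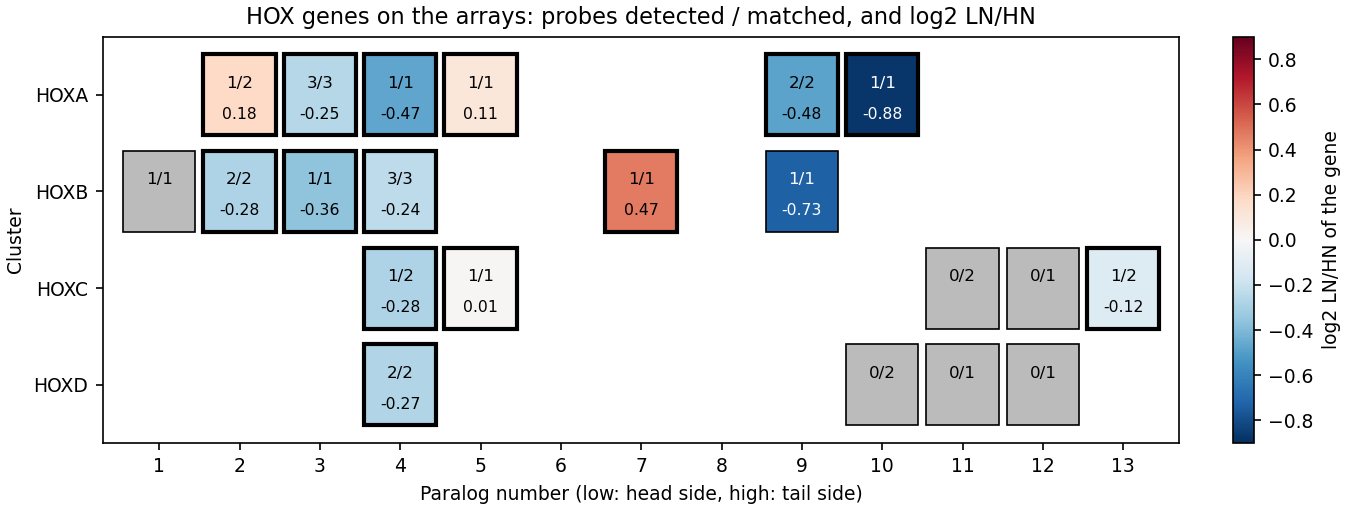
Each box is a *HOX* gene with a matched probe, placed by cluster (rows) and paralog number (columns). The upper number is the count of its probes well above background on at least 1 array over the count of matched probes, the lower number and the colour give the log2 LN/HN of the gene, grey boxes have no value, and a thick frame marks genes with a probe well above background on both arrays. Grey boxes without a detected probe lie at paralog numbers 10 to 12 of HOXC and HOXD, and the deepest blue is *HOXA10* (-0.88), while the value of *HOXB9* (-0.73) is a bound.

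In the HOXA cluster, all 6 genes with a probe were well above background on both arrays. *HOXA2*, which patterns the second pharyngeal arch of the embryo, had a signal of 70.9 in HN and 80.0 in LN from 1 probe. Its other probe was not well above background on either array (4.31 and 1.39). *HOXA3*, needed for the thymus and parathyroid, had 3 probes, with signals of 519 and 435, of 129 and 100.2, and of 8.05 and 5.12 in HN and LN, the last not well above background in LN. All of them were higher in HN. *HOXA4* had a signal of 1355 in HN and 1014 in LN. *HOXA5*, known for its role in the lung and at the border of neck and thorax, had 364 and 402 and was thus brighter in LN. *HOXA9* was measured by 2 probes, with signals of 199 and 137 and of 753 and 580.5 in HN and LN. *HOXA10*, which acts at the level of the lumbar spine and in the reproductive tract, had a signal of 173 in HN and 94.6 in LN. The signal of a probe depends on its sequence as well as on the RNA, so that levels are compared here between the pools and not between genes.

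Signals of the HOXB cluster were higher in HN for every gene but 1. *HOXB2*, a hindbrain gene, gave 39.2 and 28.1 with 1 probe and 35.9 and 31.6 with the other in HN and LN, and the single probe of *HOXB3* gave 19.6 and 14.3. The 3 probes of *HOXB4*, known for its role in blood stem cells, gave 37.1 and 30.5, 25.4 and 20.0, and 961 and 858, and were all brighter in HN. *HOXB7* was the exception, with a signal of 7.34 in HN and 9.02 in LN. *HOXB9*, which takes part in the patterning of the ribs, had a signal of 12.3 in HN and of 5.45 in LN, where it was not well above background. *HOXB1*, a gene of the hindbrain, was likewise well above background in HN (6.88) but not in LN (5.48). It has no log2 LN/HN, because its HN signal was below the lowest LN signal that counts as well above background.

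**Figure D2:**
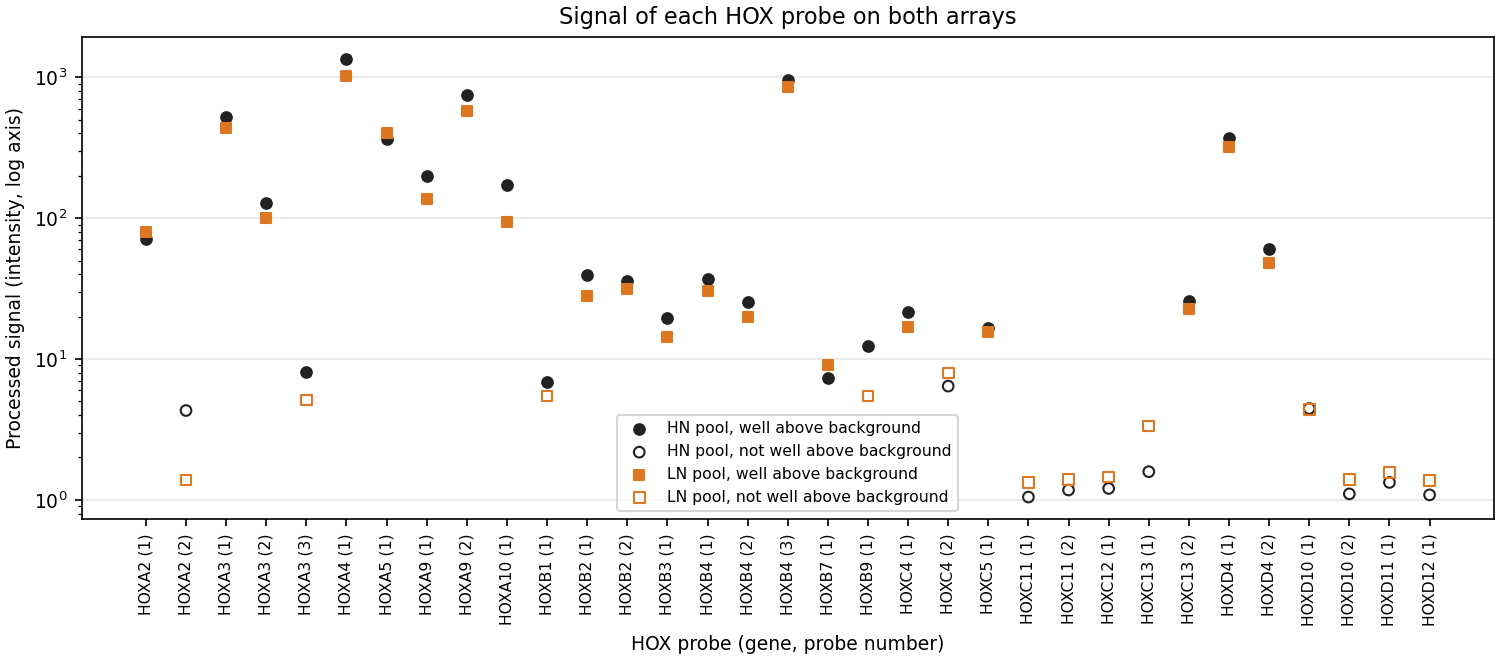
Background-corrected signal of each of the 33 *HOX* probes (x axis, gene and probe number) on the HN array (black circles) and the LN array (orange squares), on a log axis in units of intensity. Filled symbols are well above background and open symbols are not. The probes of *HOXC11*, *HOXC12*, *HOXD11* and *HOXD12* sit near 1 to 2 in both, whereas *HOXA4* is at 1355 in HN and 1014 in LN.

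The HOXC and HOXD clusters held all genes without signal. *HOXC4* had 1 probe with signals of 21.6 in HN and 16.8 in LN, while its other probe was not well above background (6.42 and 7.94). The signals of *HOXC5* were nearly the same in both (16.6 and 15.5). *HOXD4* was brighter in HN with both probes, which gave 371 and 321 and 60.5 and 48.3. The probes of *HOXC11* (1.05 and 1.17 in HN), *HOXC12* (1.20), *HOXD11* (1.33) and *HOXD12* (1.08), genes of the sacral level and of the limbs, were near the median of the negative controls, at 1.24 (HN) and 1.51 (LN). In the LN pool these probes ranged from 1.33 for *HOXC11* to 1.56 for *HOXD11*. *HOXD10* had signals of 4.45 and 4.36 in HN and LN with 1 probe and of 1.1 and 1.4 with the other. A probe at background says that this probe gave no signal, not that the gene is silent. *HOXC13*, the gene with the highest paralog number among those matched and a regulator of hair keratins, had 1 probe with signals of 25.6 and 22.5, while its other probe was at 1.58 and 3.35. The probes of *HOXC13* thus do not give the same answer. Of the epidermal markers, neither probe of *KRT5* was well above background, and of the 2 probes of *KRT14*, 1 was, with a signal of 961 in HN and 1151 in LN. The part of skin in the signal of *HOXC13* was not tested.

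To compare the pools, log2 signals were normalized by the quantile method. A gene was given the average log2 LN/HN of its probes, negative when lower in LN. For a probe that was dim on the LN array, the lowest signal so marked there took the place of its own, and the difference is then at least of the size given. A log2 LN/HN beyond 0.32 in either direction is called past the threshold, a limit of size and not of significance. Of the 21 genes, 15 had a value. Of these, 11 were lower and 4 higher in LN, whereas 50.7% of the 19554 genes with a value were lower. The median log2 LN/HN of the 15 genes was -0.27, and that of all genes was -0.0033. Past the threshold, 5 *HOX* genes were lower (9.11% of all genes) and 1 was higher (8.85% of all genes). With the 75th percentile of each array subtracted in place of the quantile method, these counts were 8 and 0 of 16 genes with a value (13.6% and 6.00% of all genes). None had a value past 2-fold, as 0.997% of all genes had, where the value of *HOXB9* is a bound and its difference could be larger. In pooled tissue, fewer cells of a type and less RNA per cell cannot be told apart. *HOXB9* was counted only because its HN signal was well above background, which fixes its direction. Among the 14 genes with a probe well above background on both arrays, 10 were lower, against 49.3% of the 18800 genes so measured. Of the 14 genes, 5 were past the threshold lower (7.99% of those 18800) and 1 was higher (8.12%), with *HOXA3* (-0.33 without its dim probe) in the place of *HOXB9*. Over all 15 genes with a value, 4 of 6 HOXA genes (median -0.36), 4 of 5 HOXB genes (median -0.28), 2 of 3 HOXC genes (median -0.12) and *HOXD4* were lower. By paralog number, 7 of 8 genes of groups 1 to 4 were lower (median -0.27), 2 of 5 in groups 5 to 9 (median 0.01) and 2 of 2 in groups 10 to 13 (median -0.50). The counts and medians of HOXB and of groups 5 to 9 include *HOXB9*, whose direction was fixed. The only other lower gene of groups 5 to 9 was *HOXA9*.

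*HOXA10* had the lowest value among the *HOX* genes measured on both arrays, a log2 LN/HN of -0.88 or a 1.84-fold lower signal in LN. It rests on 1 probe, whose difference was -0.83 in the authors' own normalized values (7.97 in HN and 7.14 in LN). The 2 probes of *HOXA9* gave -0.55 and -0.42, with a mean of -0.48 (1.40-fold), and *HOXA4* had a log2 LN/HN of -0.47 (1.39-fold) from 1 probe. *HOXB9* was at least 1.66-fold lower in LN, from its single probe, a bound that cannot be ranked against *HOXA10*. *HOXB3* had a log2 LN/HN of -0.36 (1.28-fold). *HOXB7* was the gene past the threshold in the other direction, with 0.47 (1.38-fold).

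The scanner software gives an error for each signal, which was close to 10% for bright probes and 18.8% for *HOXB7* in HN. It put the error of a log2 LN/HN between 0.20 and 0.38 for the *HOX* probes well above background on both arrays, with a median of 0.21. The 95% interval of this error lay below 0 for 4 of these 20 probes, and 3.87% of all probes measured on both arrays were so. They were the probe of *HOXA10* (-1.28 to -0.47), both probes of *HOXA9* (-0.95 to -0.15 and -0.82 to -0.02) and that of *HOXA4* (-0.87 to -0.07). The interval of *HOXB7* (-0.28 to 1.21) and those of the other 15 probes included 0. Spots printed several times gave a smaller error, an SD of 0.086 for the log2 LN/HN of a single spot over 42 probes. Neither error includes the variation among fetuses.

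**Figure D3:**
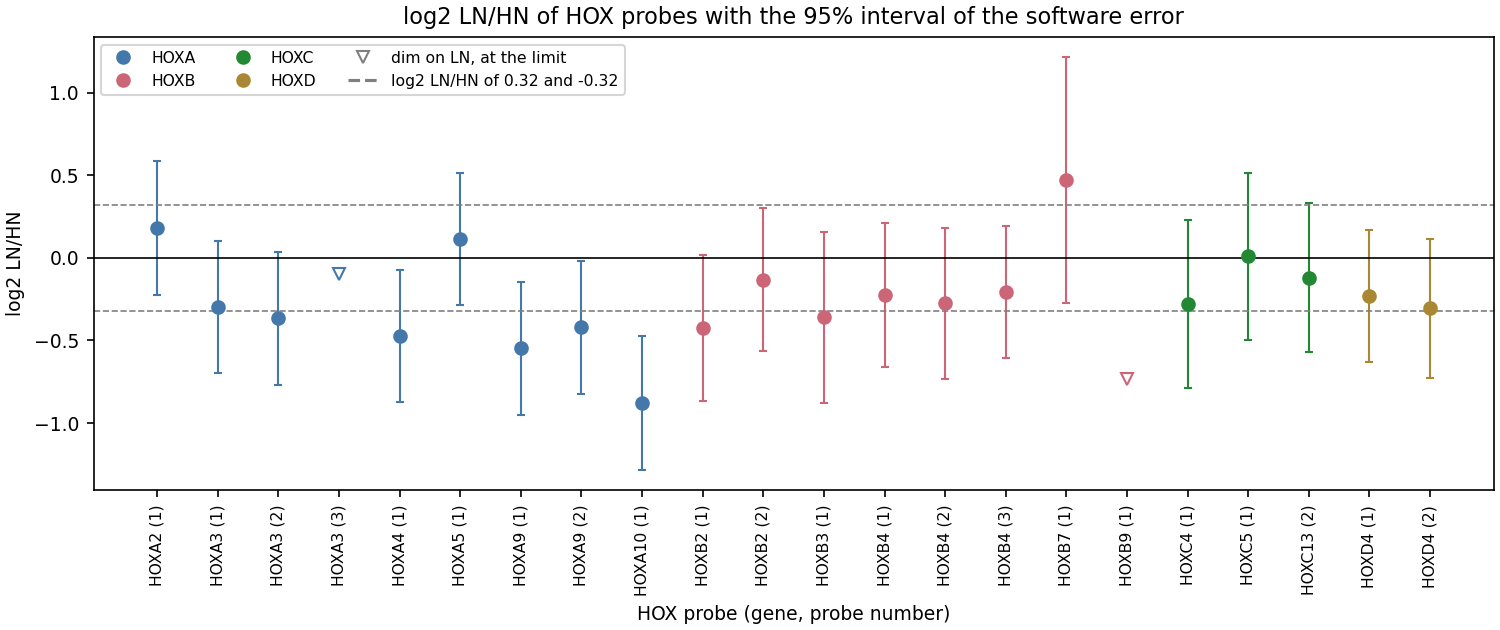
The log2 LN/HN of each *HOX* probe with a value (x axis, gene and probe number), coloured by cluster, with bars for the 95% interval of the software error. Open triangles mark probes that were dim on the LN array and set to the limit, without an interval, and dashed lines mark the threshold of 0.32. The intervals of *HOXA4*, *HOXA9* and *HOXA10* lie below 0.

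Along the HOXA cluster, the sign of the difference changed with no order by paralog number. *HOXA2* (0.18) and *HOXA5* (0.11) were higher in LN by less than the error, whereas *HOXA3* (-0.25, with probes from -0.37 to -0.10) and *HOXA4*, which lie between them in the order of the cluster, were lower. The log2 LN/HN of *HOXA10* minus that of *HOXA5* was -0.99, with a 95% interval from -1.56 to -0.42, and the interval was -1.15 to -0.02 for *HOXA4* against *HOXA5*. For the probes of *HOXA9* it was -1.23 to -0.09 and -1.10 to 0.03. *HOXA5* was taken for this comparison after its value had been seen. The 4 probes set against it are those whose own intervals lay below 0, so the differences add no separate support. In the gene table the loci of *HOXA3*, *HOXA4* and *HOXA5* overlap, as do *HOXB3* and *HOXB4*, so a transcript that runs through several of them could reach the probes of more than 1 gene.

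Paralog group 4 had a probe in every cluster. Its 4 genes were all lower in LN, with a log2 LN/HN of -0.47 for *HOXA4*, -0.24 for *HOXB4*, -0.28 for *HOXC4* and -0.27 for *HOXD4*. The 3 probes of *HOXB4* ranged from -0.27 to -0.21 and the 2 probes of *HOXD4* from -0.31 to -0.23, although their signals within a gene were far apart. *HOXB2* had a value of -0.28, with probes at -0.42 and -0.13. In all 5 *HOX* genes with several probes well above background on both arrays, the probes had the same direction, and they differed by 0.07 to 0.29 within a gene. All of these probes were lower in LN, as were 16 of the 20 *HOX* probes so measured, and the share for other genes was not counted. The median SD between probes of a gene over the whole array was 0.099. In groups 5 to 9, *HOXC5* had a value of 0.01. In groups 10 to 13, *HOXC13* had a value of -0.12 besides that of *HOXA10*.

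**Figure D4:**
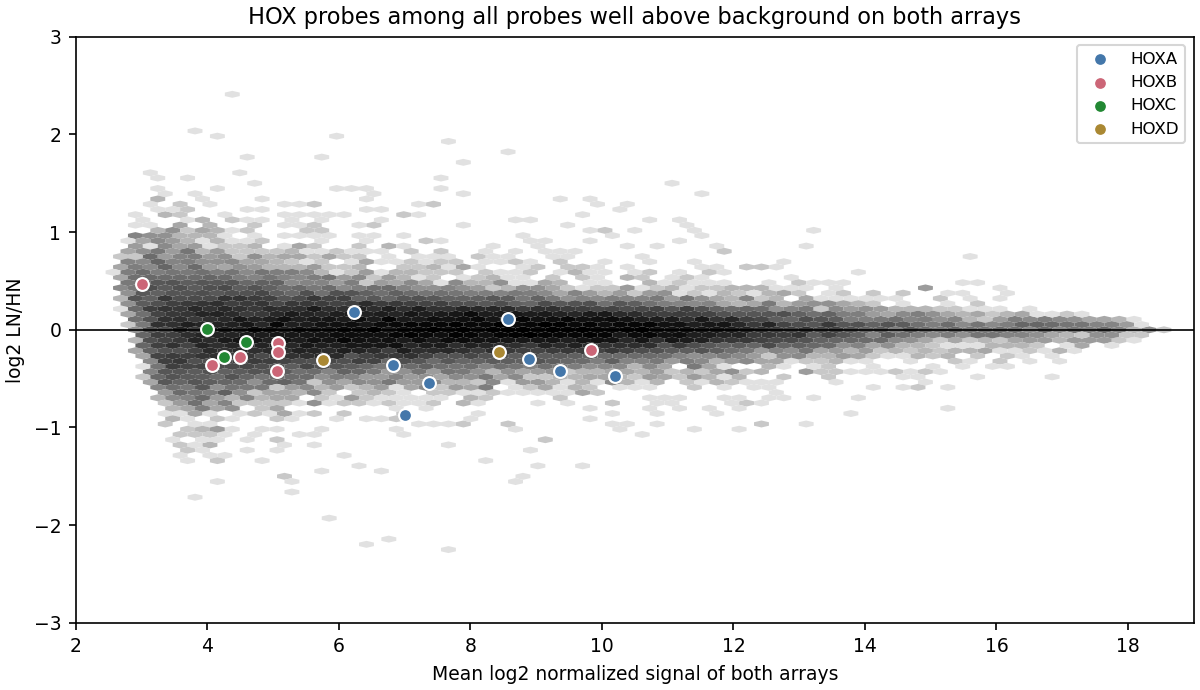
Mean log2 normalized signal of both arrays (x axis) and log2 LN/HN (y axis) of all probes well above background on both arrays (grey, darker where more probes fall, log scale of counts), with the 20 *HOX* probes coloured by cluster. Of the *HOX* probes, 16 lie below 0, and those of *HOXA4*, *HOXA9* and *HOXA10* lie at the lower side of the cloud at their signal.

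Genes around the clusters had values near 0. Of 22 genes listed as flanking the 4 clusters, 17 had a value, and 6 were lower and 11 higher in LN, with a median log2 LN/HN of 0.0080. With the 75th percentile subtracted, 9 of 18 were lower. The median was 0.04 for the flank of HOXA, 0.06 for that of HOXB, -0.0011 for that of HOXC and 0.02 for that of HOXD. The only one past the threshold was *CALCOCO1* beside HOXC, a coactivator gene, with -0.44 from 2 probes (-0.49 and -0.40). *EVX1*, the homeobox gene next to *HOXA13*, was not well above background on either array (6.52 and 5.11).

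HOX proteins bind DNA together with cofactors of the PBX, MEIS and PKNOX families. All 9 cofactor genes had a probe and 8 had a value, 4 lower and 4 higher, with a median log2 LN/HN of -0.06. With the 75th percentile subtracted, 6 of the 8 were lower, and so were 58.4% of all genes. Past the threshold, *PKNOX2* (-0.44) and *PBX4* (-0.43) were lower and *MEIS3* (0.38) was higher. *PKNOX2* and *PBX4* each rest on a single probe that was dim in LN, which fixes their direction, and 1 of the probes behind *MEIS3* was dim on 1 array. The median of the 6 cofactor genes with probes well above background on both arrays was 0.03. *MEIS3* was -0.02 after the normexp background correction, a model of background that also adds an offset of 50, and -0.04 in the authors' normalized values. *MEIS2* (2 probes used) was at 0.14, and *MEIS1* (4 probes) was at 0.07, or -0.01 with the 75th percentile subtracted. Polycomb proteins keep *HOX* genes silent outside their domain, and trithorax proteins keep them active. Of 18 Polycomb genes, 15 had a value, 6 lower and 9 higher (median 0.03), and 8 of the 15 were lower after the normexp background correction. *EZH2*, the methyltransferase of the complex, had 0.02 from 6 probes. *PHC3* (0.81) and *CBX2* (0.53) were past the threshold, each from 1 probe near background, and after the normexp background correction they had 0.09 and -0.05. Of 8 trithorax genes, 5 had a value, 2 lower and 3 higher (median 0.03), and *KMT2A* had no matched probe.

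Of 12 genes listed for the signals that set *HOX* expression along the embryo, 8 had a probe, 3 of them well above background on both arrays, 1 on HN only and 4 on neither. *CDX2*, a caudal gene that switches on posterior *HOX* genes, was not well above background with any of its 3 probes, and no probe was matched to *GDF11*. The 3 genes measured on both arrays were lower in LN, with a log2 LN/HN of -0.27 for *RARG* (1 of its 3 probes dim on 1 array) and -0.14 for *RARA*, both retinoic acid receptors, and of -0.25 for *GBX2*, a homeobox gene of the hindbrain border. *CDX1* had a value (-0.16) only because its HN signal was well above background, which fixes its direction. With it the median of the 4 was -0.21, and none was past the threshold as processed here. The median was -0.36 over 5 genes with the 75th percentile subtracted, which puts some of them past it, -0.33 without normalization, -0.32 with cyclic loess and -0.07 after normexp.

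The labelled tissue was checked by markers. All 9 matched skeletal muscle markers were well above background on both arrays, and 8 were lower in LN, with a median log2 LN/HN of -0.22 and a summed normalized signal of 607463 (HN) and 550704 (LN). The lowest was *MYH1*, a fast myosin chain (-0.50), and *MB*, myoglobin, had -0.37. All 6 fibroblast markers were higher in LN, with a median of 0.28 and a summed normalized signal of 18439 in HN and 22251 in LN, and *LUM* (0.35), *COL1A1* (0.34) and *COL3A1* (0.33) were past the threshold. Of 5 endothelial markers 4 were lower (median -0.19), and the other, *VWF* (0.02), included a probe that was dim on 1 array. All 5 were lower with the 3 other scalings and after the normexp background correction. All 3 smooth muscle markers (median -0.33) and all 3 leukocyte markers (median -0.22) were lower, 2 of the latter after the normexp background correction. Among these, *MYH11* (-0.49), *ACTA2* (-0.33) and *CD68* (-0.35) were past the threshold. The median was 0.0029 for 5 Schwann cell markers, 0.09 for 2 satellite cell markers, 0.13 for 2 adipocyte markers, of which *FABP4* (0.39) was past the threshold, and -0.03 for 2 markers of cartilage and bone. The part of these cell types in the lower *HOX* signals was not tested.

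Over 10 other ways of processing, *HOXA4*, *HOXA9* and *HOXA10* were lower in LN and past the threshold in each. Only the 3 other scalings, normexp and the authors' values could change *HOXA4* and *HOXA10*, which have a single probe, bright on both arrays. The log2 LN/HN of *HOXA10* ranged from -0.91 to -0.49, that of *HOXA9* from -0.49 to -0.37 and that of *HOXA4* from -0.47 to -0.42. *HOXA3*, *HOXB2*, *HOXB3*, *HOXB4* and *HOXD4* were lower in each as well, but past the threshold in only some or none. *HOXB9*, which had a value in 8 of the other ways, ranged from -0.99 to -0.13. *HOXB7* was higher in each, from 0.10 to 0.47. *HOXA2* (-0.73), *HOXC4* (0.11) and *HOXC13* (0.54) took the other direction when dim probes were not filtered, since the probe at background then entered the mean, and *HOXC5* was -0.14 with the 75th percentile subtracted.

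**Figure D5:**
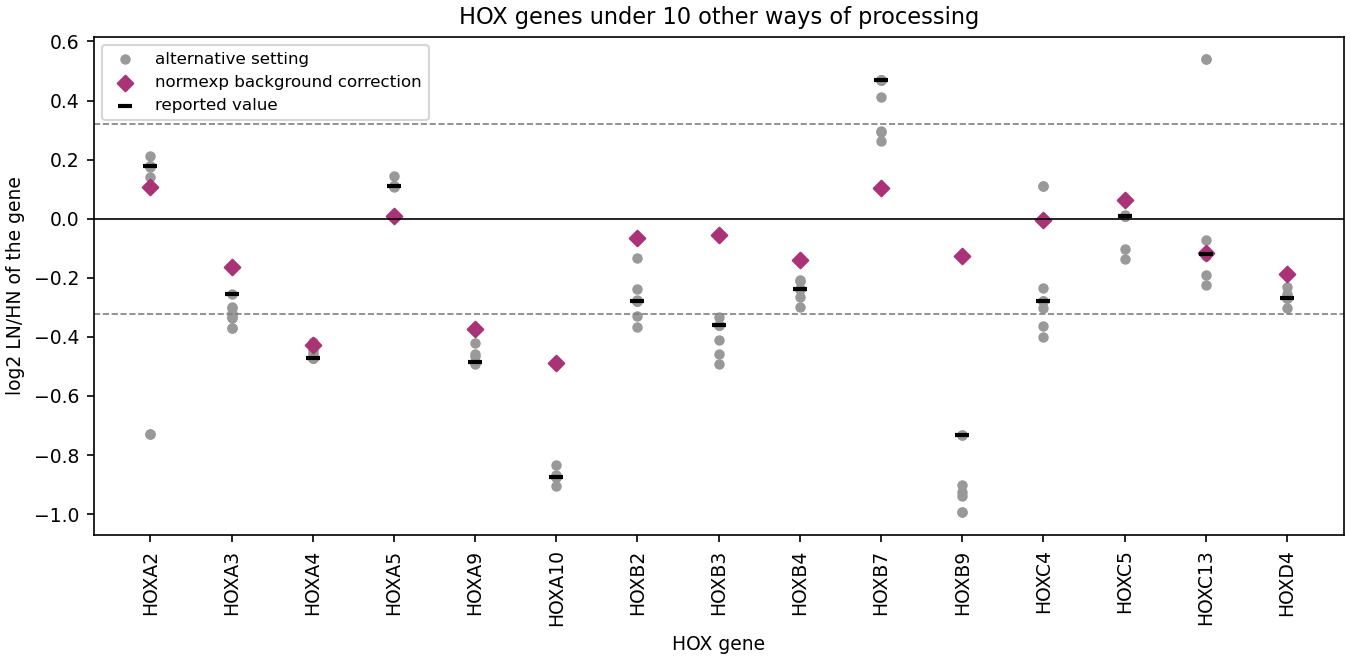
The log2 LN/HN of each *HOX* gene with a value (y axis) as reported (black bars) and under 10 alternative settings (grey points, and diamonds for the normexp background correction), with dashed lines at the threshold of 0.32. *HOXA4*, *HOXA9* and *HOXA10* stay below the lower line in all settings, and the values of *HOXB3* and *HOXB9* come close to 0 with normexp.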

How the data were processed

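The authors extracted the arrays with Feature Extraction 11.0.1.1, and deposited background-corrected spot intensities without normalization between arrays, with an error and flags per spot. The log2 values that the authors deposited in a second table came from quantile normalization in GeneSpring GX. The log2 scale is judged from the values, since the table does not state it (median 8.03 in each column, Pearson's r 0.9995 and 0.9996 across probes with the log2 intensities). Each column is 1 array, not a ratio, and whether any further centring was applied is unknown. These hold 20 of the 33 *HOX* probes. Of the 43803 spots that are not controls, the software marked 74.5% (HN) and 70.9% (LN) as well above background, and no spot was saturated.

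Quantile normalization of the log2 intensities used limma 3.58.1 (R 4.3.3). Spots with an outlier flag were removed (13, none of *HOX*). Probes well above background on 1 or both arrays were used. On a dim side the lowest signal so marked (log2 2.27 for HN, 2.82 for LN) replaced the probe's own if that was lower, and no fold was given where the bright side did not exceed it. Accessions were matched to symbols with a RefSeq gene table (assembly ARS-UCD2.0), which served for names and neighbours alone, since the array design refers to UMD 3.1. Genes were handled with Python 3.11.15, and the steps were tested on simulated data. Every *HOX* gene with a probe is accounted for, and of the other lists (21 lists, 135 entries, written by hand) mainly those past the threshold of 0.32 or defining a list are named. Some entries are not reported here. Members and lists were chosen with earlier results of these data known. The normexp correction used the median spot signal, because the arrays' tables used here hold no mean.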

Additional observations from a re-analysis of the deposited data

How the results depend on the processing

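The 10 alternatives changed the scaling (none, cyclic loess, or the 75th percentile subtracted), the background correction (normexp, offset 50), the source (the authors' normalized values), the filter on dim probes (3 ways), the probe taken for a gene (the brightest) and the removal of outlier spots. Of the *HOX* genes, 5 were past the threshold lower as reported (9.11% of all genes), 8 with the 75th percentile subtracted (13.6%) and 3 with normexp (2.0%). The count past the threshold higher, 1 as reported (8.85% of all genes), was 0 with the other 3 scalings (6.00% to 8.48%) and with normexp (1.62%), and 2 when dim probes were not filtered (12.2%) or only had to be positive and significant (13.1%). The median log2 LN/HN of *HOX* genes was -0.091 with normexp, whose offset is added to every signal and shrinks differences of dim probes by construction, and -0.11 without a filter. The number of genes well above background rests on the software's flag, which scaling, normexp, the choice of probe and outlier spots could not change. It was 14 in those settings by construction, and 17 when a gene had to be positive and significant on both arrays. By paralog group, that rule gave 9, 5 and 3 genes in place of 8, 4 and 2. The authors' values held a probe for 14 genes. No *HOX* gene past the threshold reversed. For 118 of the 148 values of single *HOX* genes under an alternative, the difference from the reported value was below the SD between probes. *HOXB1* had no value as reported, since its HN signal did not exceed the limit of the LN array. No paired analysis was possible because each group has 1 array, and no replicate could be left out. Precision is limited by the number of arrays, and signals near background by the limit of detection.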

Other observations

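Genes that mark a place in the body outside the *HOX* clusters were also read. Of 7 genes of limb position, *TBX5*, the forelimb gene, was not well above background on either array (4.55 in HN and 2.0 in LN). *TBX4*, a hindlimb gene, was well above background in both (142 and 138), with a log2 LN/HN of -0.05. *PITX1*, which acts upstream of it in the hindlimb, was also well above background in both (29.5 and 40.3), and its single probe had a log2 LN/HN of 0.50, or 0.14 after the normexp background correction. *SHOX2* was the other limb gene with a value, so that 3 of the 7 had one (median 0.05). Of 6 genes of trunk position, *MEOX1* and *MEOX2* had a value (median 0.03).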
